A study of Mus musculus with 10 samples.

Results

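Levels of 10 endothelial genes of caveolae, fenestrae and the luminal sialomucin coat were measured in single endothelial cells sorted from mouse ear skin. The genes are *Plvap*, *Cav1*, *Cav2*, *Cavin1*, *Cavin2*, *Ehd2*, *Ehd4*, *Emcn*, *Podxl* and *Cd34*, and they were taken as a fixed list from the 46517 Ensembl genes of the count tables. This list was chosen with earlier results of these data known, so counts of called members beside all genes are descriptions. All 10 were in the tables and all 10 passed the filter on low counts in every comparison. They were followed in blood endothelial cells (BECs), in lymphatic endothelial cells (LECs), in LECs with *Plvap*, and in mutant against control mice.

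Caveolae are flask-shaped pits of the plasma membrane that are abundant in endothelium. Caveolins insert into the inner leaflet, cavins form the coat around them, and EHD ATPases sit at the neck. PLVAP makes the diaphragms that close caveolae and fenestrae and is known from fenestrated and venous endothelium. Endomucin, podocalyxin and CD34 are heavily sialylated mucins of the luminal surface, where CD34 can carry the glycans that L-selectin binds in high endothelial venules.

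Cells came from 5-week-old mice. The 5 mutant mice were Pik3caH1047R;Cdh5-CreERT2, Cre+, and received 4-OHT on the ears at 3 weeks, so that an oncogenic p110α was switched on in cells that use the *Cdh5* promoter, that is in blood and lymphatic endothelium alike. Control 1 was a wild-type mouse of the C57BL/6J strain that received no 4-OHT, and control 2 a littermate without Cre that did, so the 2 controls differ in treatment and breeding, and the counts of a further control mouse were not analysed here. Podoplanin and CD31 staining guided the sort into 384-well plates, with immune and red cells gated out, and Smart-Seq2 full-length libraries were made from 9 plates, of which mutants 3 and 5 had 2 each.

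Of 3456 wells, 3248 were kept, 2524 from mutant and 724 from control mice, with a median of 300447.5 reads per cell in mutant and 286372 in control mice and 99969650 to 151812175 reads per plate. A BEC was a cell whose *Flt1*, *Emcn* and *Podxl* summed to at least 300 CPM (counts of a gene over all counts of the cell, on the usual per-million scale) and exceeded *Prox1*, *Flt4* and *Mmrn1*, and a LEC was the reverse. This gave 1490 BECs (1174 mutant, 316 control) and 1641 LECs (1283 mutant, 358 control), although the sample labels name LECs alone, and left 117 cells in neither class. Near the limit, 10 BECs and 5 LECs had a sum of 300 to under 350 CPM, and 7 and 2 cells with a sum of 250 to under 300 CPM were left out. All 7 further BEC markers were higher in BECs and all 6 further LEC markers were higher in LECs. No 2 kept cells held the same counts, but 1048 LECs also had a BEC sum of 300 CPM or more, and 357 BECs entered through *Emcn* or *Podxl* without enough *Flt1*. Mutants 1 to 4 were on plates of a low number series, and mutant 5 and both controls on plates of a high one, so genotype and plate series can be told apart only through mutant 5. BECs of control mice also held more fibroblast RNA. *Col1a1*, *Col1a2*, *Dcn*, *Lum* and *Pdgfra* together stood at 574.5 to 789.8 CPM in control and 12.8 to 43.4 CPM in mutant BECs, and at 192.7 to 381.6 and 15.8 to 106.1 CPM in LECs.

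*Cav1* (ENSMUSG00000007655, chr6:17306335-17341452, plus strand, GRCm38 with GENCODE vM21) encodes caveolin-1, which endothelial caveolae require. *Cav2* (ENSMUSG00000000058, chr6:17281185-17289115, plus strand) encodes its partner caveolin-2 and ends 17220 bases before the start of *Cav1*. *Cavin1* (ENSMUSG00000004044, chr11:100956733-100970887, minus strand) encodes the core of the cavin coat. *Cavin2* (ENSMUSG00000045954, chr1:51289126-51302960, plus strand) encodes a cavin that shapes the membrane. *Ehd2* (ENSMUSG00000074364, chr7:15946958-15967567, minus strand) encodes the ATPase that holds caveolae at the surface, and *Ehd4* (ENSMUSG00000027293, chr2:120089175-120154606, minus strand) a relative that also works in endosomal traffic. *Plvap* (ENSMUSG00000034845) lies at chr8:71497765-71511752 on the minus strand. Among the sialomucins, *Emcn* (ENSMUSG00000054690) lies at chr3:137341067-137432185 on the plus strand, *Podxl* (ENSMUSG00000025608) at chr6:31519488-31563981 on the minus strand, and *Cd34* (ENSMUSG00000016494) at chr1:194938819-194961279 on the plus strand. *Cd34* shares 148 exonic bases with the antisense gene *Gm16897*, and since no strand-aware counting is stated, reads there cannot be told apart. The other overlaps with a gene on the opposite strand (*Plvap*, *Cav1*, *Cav2* and *Cavin2*) shared 0 exonic bases.

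RefSeq windows of the 250 bases before a start (GRCm38.p6) were found for 8 members, 10 windows in all. The 3 windows printed hold the letters AGGAAG, a core that ETS factors of endothelium such as ERG can bind. They belong to *Cd34*, *Ehd4* and *Emcn*. A tie of the match to a difference in mutant mice was not tested. These 3 are among the 4 members called in mutant mice, in different cell classes and directions. The window of *Ehd2*, the remaining one of these, held no match, and *Plvap* and *Podxl* had no window. Capitals mark the match, which reads CTTCCT where it lies on the other strand, and each window is read 5′ to 3′ on the strand of its gene.
*Cd34* at chr1:194938571-194938820, plus strand: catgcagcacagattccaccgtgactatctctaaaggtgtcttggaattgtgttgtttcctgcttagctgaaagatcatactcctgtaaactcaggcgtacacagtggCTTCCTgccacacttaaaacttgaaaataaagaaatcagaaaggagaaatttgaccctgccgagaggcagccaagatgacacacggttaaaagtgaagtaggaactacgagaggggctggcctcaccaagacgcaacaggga
*Ehd4* at chr2:120154576-120154825, minus strand: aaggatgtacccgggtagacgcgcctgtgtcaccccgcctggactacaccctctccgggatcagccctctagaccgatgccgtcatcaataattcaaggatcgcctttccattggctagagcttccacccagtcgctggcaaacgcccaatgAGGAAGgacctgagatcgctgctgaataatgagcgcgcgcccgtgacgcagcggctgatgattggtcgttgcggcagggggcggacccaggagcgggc
*Emcn* at chr3:137340828-137341077, plus strand: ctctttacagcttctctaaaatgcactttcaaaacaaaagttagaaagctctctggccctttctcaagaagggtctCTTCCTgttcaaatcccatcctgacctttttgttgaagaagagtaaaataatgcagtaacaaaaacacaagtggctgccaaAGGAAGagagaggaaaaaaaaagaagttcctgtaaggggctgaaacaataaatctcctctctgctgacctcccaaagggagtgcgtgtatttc
AGGAAG occurred on either strand in 29.5% of all 32851 windows of this length and in 3 of the 10 member windows, with 2 matches in *Emcn*. The forkhead letters TGTTTAC (3.17% of all windows) and the longer ETS letters CCGGAAGT (2.88%) occurred in 0 of the 10. A match is a description of letters and was not tied to binding.

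The first question was how the genes differ between blood and lymphatic endothelium. *Plvap*, *Ehd4* and *Cd34* were several-fold higher in BECs, *Cav1*, *Cav2* and *Cavin1* were modestly higher, and *Cavin2* and *Ehd2* were not called. Reads were summed over the cells of each class in each mouse and fitted with the mouse as a block, and CPM of such sums are scaled by the TMM method. Between BECs and LECs 4823 of 21933 genes were called, or 22%, at an adjusted p under 0.05, with 10.2% higher in BECs. Of the 8 members that were not part of the gate 6 were called, all higher in BECs, and all 6 were higher in every mouse, as were 9.66% of all genes.

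Of the coat genes, *Cav1* averaged 2999 ± 496 CPM in BECs and 1678 ± 413 CPM in LECs (SD, n = 7 mice). It was 1.81-fold higher in BECs (log2 0.86, SE 0.07, adjusted p = 2.82e-05, edgeR's quasi-likelihood test) and higher in 7 of 7 mice. *Cav2* stood at 832 ± 171 and 596 ± 133 CPM and was 1.40-fold higher (log2 0.48, SE 0.08, adjusted p = 0.00227), again in 7 of 7 mice. *Cavin1* was 1.26-fold higher (log2 0.33, SE 0.07, adjusted p = 0.0082), a difference that was small beside its range of 744 to 1636 CPM over the BECs of the mice and that was lost without the mouse as a block (adjusted p = 0.334). *Cavin2* stood at 1074 ± 146 CPM in BECs and 1082 ± 241 CPM in LECs (log2 0.01, SE 0.09, adjusted p = 0.973). *Ehd2* stood at 1322 ± 329 and 1280 ± 335 CPM (log2 0.06, SE 0.07, adjusted p = 0.660). Each of these was higher in BECs in 3 and 4 of 7 mice respectively.

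*Ehd4* set the classes further apart than any other coat gene. It ranged from 401 to 1199 CPM in BECs and from 76.0 to 270.5 CPM in LECs, with no overlap, and was 4.90-fold higher in BECs (log2 2.29, SE 0.16, adjusted p = 1.71e-05). *Plvap* ranged from 1968 to 4101 CPM in BECs and from 462 to 821 CPM in LECs and was 4.67-fold higher (log2 2.22, SE 0.17, adjusted p = 2.72e-05). *Cd34* was 6.10-fold higher in BECs (log2 2.61, SE 0.54, adjusted p = 0.00799), with the widest spread of the members. Its log2 ratio within a mouse ran from 1.07 to 5.67, and its BEC levels of 1255 to 1783 CPM lay close together, so that the spread came from LECs, where it ran from 27.6 to 616 CPM. *Emcn* (1074 ± 258 and 376 ± 74.3 CPM) and *Podxl* (316 ± 80.8 and 222 ± 45.6 CPM) helped to define BECs, so their log2 differences of 1.50 and 0.49 are given with no test. Without these genes in the gate, 6 of the 8 members were still called.

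**Figure D1:**
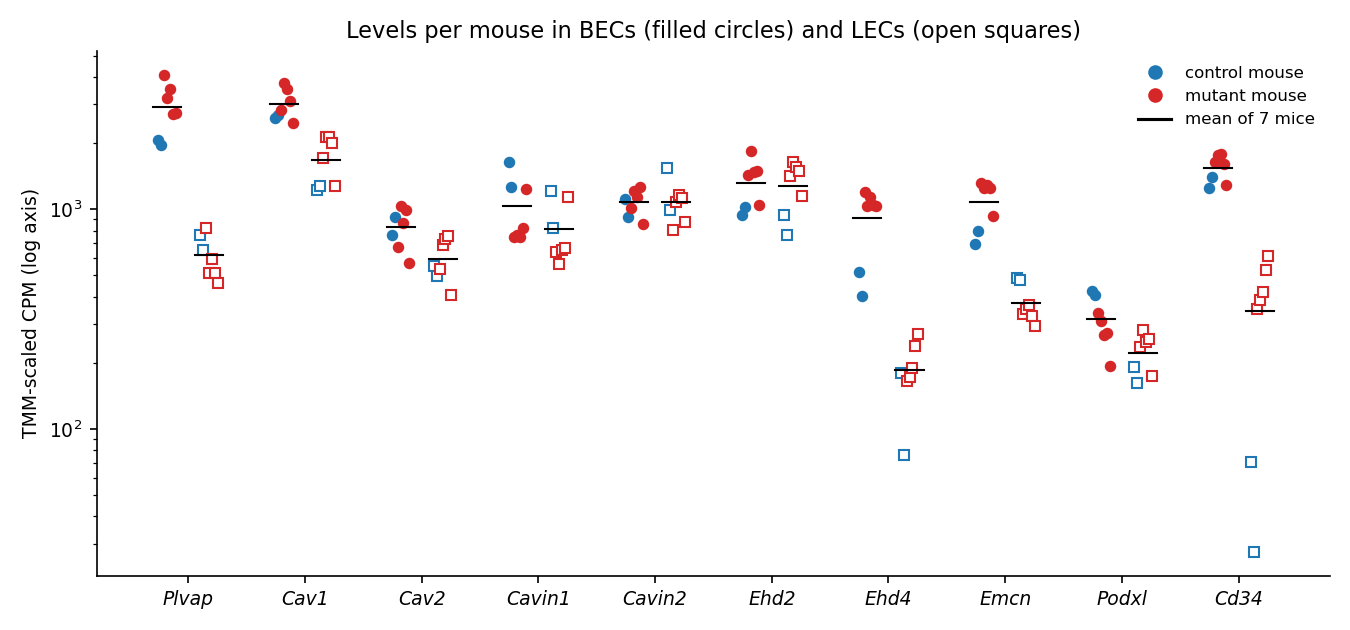
TMM-scaled CPM (log axis) of each gene in the BECs (filled circles) and LECs (open squares) of 5 mutant (red) and 2 control mice (blue), with the mean of 7 mice as a bar. *Plvap*, *Ehd4*, *Cd34* and, more narrowly, *Cav1* separate the cell classes, and *Cavin2* and *Ehd2* do not. *Emcn* also separates them but is one of the genes of the BEC gate. *Cd34* in LECs lies at 27.6 and 70.9 CPM in the controls and above 340 CPM in every mutant mouse.

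Levels of different genes are compared per kilobase of exon, as mean CPM per kb over 7 mice. In BECs *Plvap* led with 1442 ± 382 CPM per kb and exceeded *Cav1*, the next gene at 871 ± 144, in 7 of 7 mice. *Cavin2* (352 ± 47.8), *Cavin1* (287 ± 97.8), *Ehd2* (259 ± 64.5), *Cav2* (249 ± 51.3), *Ehd4* (227.5 ± 79.0), *Cd34* (211 ± 30.2) and *Emcn* (198.5 ± 47.6) followed, and neighbours in this stretch changed places in at least 2 mice. *Podxl* was lowest with 57.6 ± 14.7 CPM per kb. In LECs *Cav1* led with 487 ± 120 CPM per kb, followed by *Cavin2* (354 ± 78.9) and *Plvap* (306 ± 67.3), so the diaphragm gene stood behind *Cav1* and *Cavin2* in LECs and ahead of both in BECs. *Emcn* (69.6 ± 13.7), *Ehd4* (46.1 ± 15.4) and *Podxl* (40.4 ± 8.31) formed a low group in LECs, and *Emcn* was below *Cav2* (179 ± 39.8) in 7 of 7 mice. *Cd34* had no single place in LECs, at 3.78 CPM per kb in the lowest mouse, a control, and 84.5 in the highest, a mutant.

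The genes whose log2 CPM followed *Plvap* most closely over the 14 sums were *Cysltr1* (Pearson r = 0.985), which encodes a receptor for cysteinyl leukotrienes, *Cadm3* (0.985), *Gm16587* (0.982), *Fabp5* (0.981), a fatty acid carrier, and *Gimap1* (0.980). The 14 points were 7 BEC and 7 LEC sums of the same mice, so r holds the step between the classes, which was log2 4.54 to 6.66 for the first 4 of these genes and 0.97 for *Gimap1*.

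Within BECs the genes differed between cells with arterial and with venous markers. An arterial-marker BEC had *Gja4*, *Gja5*, *Hey1*, *Sema3g* and *Bmx* at 100 CPM or more in sum and above *Ackr1*, *Selp* and *Vwf*, and a venous-marker BEC was the reverse. There were 188 arterial-marker and 828 venous-marker BECs in mutant mice and 88 and 147 in control mice. *Plvap*, *Ehd4*, *Emcn* and *Cd34* were higher in venous-marker cells, and *Podxl*, *Cav1*, *Cav2*, *Cavin1* and *Ehd2* in arterial-marker cells. Of 18114 genes tested 676 were called, or 3.73%, with 1.69% higher and 2.04% lower in arterial-marker BECs. Of the 10 members 9 were called, 5 higher and 4 lower. Over all genes 2.84% were higher and 4.2% lower in arterial-marker cells of every mouse.

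*Plvap* stood at 711 to 1108 CPM in arterial-marker and 2953 to 5187 CPM in venous-marker BECs over the 7 mice. It was 4.09-fold lower in arterial-marker cells (log2 −2.03, SE 0.12, adjusted p = 3.09e-05), lower in 7 of 7 mice. *Ehd4* followed it with 188 to 525 CPM against 645 to 1546 CPM (log2 −2.14, SE 0.18, adjusted p = 0.000248). *Emcn* stood at 370 to 956 against 873 to 1449 CPM (log2 −1.01, SE 0.12, adjusted p = 0.00157) and was lower in 7 of 7 mice although the ranges over mice overlapped. *Cd34* differed least (log2 −0.42, SE 0.09, adjusted p = 0.0324), was lower in 6 of 7 mice, and lost its call with DESeq2 size factors.

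*Podxl* ran the other way. It stood at 416.5 to 784.5 CPM in arterial-marker and 125 to 285 CPM in venous-marker BECs, with no overlap, and was 2.97-fold higher in the former (log2 1.57, SE 0.14, adjusted p = 0.000383). Thus the 2 sialomucins of the gate, *Emcn* and *Podxl*, lay on opposite sides. *Ehd2* (log2 0.58, SE 0.08, adjusted p = 0.00333), *Cav2* (log2 0.58, SE 0.08, adjusted p = 0.00503), *Cav1* (log2 0.56, SE 0.08, adjusted p = 0.00552) and *Cavin1* (log2 0.39, SE 0.07, adjusted p = 0.0111) were each higher in arterial-marker cells of 7 of 7 mice. *Cavin2* was higher in 6 of 7 mice (log2 0.43, SE 0.12) and was not called (adjusted p = 0.0864). The paralogs *Ehd2* and *Ehd4* thus differed in opposite directions. Mural cell RNA also moved with this split. *Rgs5*, *Pdgfrb*, *Acta2*, *Notch3* and *Kcnj8* together stood at 55.9 to 1515 CPM in arterial-marker and 2.96 to 337 CPM in venous-marker BECs, with 1 of the 5 (*Rgs5*) called, and their part in the result was not tested.

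The median of all tested genes was −0.23 on the log2 scale under TMM scaling and −0.18 with DESeq2 size factors, with which the split became 6 higher and 3 lower, *Cavin2* joining and *Cd34* leaving. A gate without *Emcn* and *Podxl* also gave 6 higher and 3 lower, with *Cd34* at −0.23 (adjusted p = 0.368). *Emcn* and *Podxl* helped to admit the BECs, and both were called in all 14 alternatives, this gate among them. Without the mouse as a block 5 members were called, 2 higher and 3 lower.

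**Figure D2:**
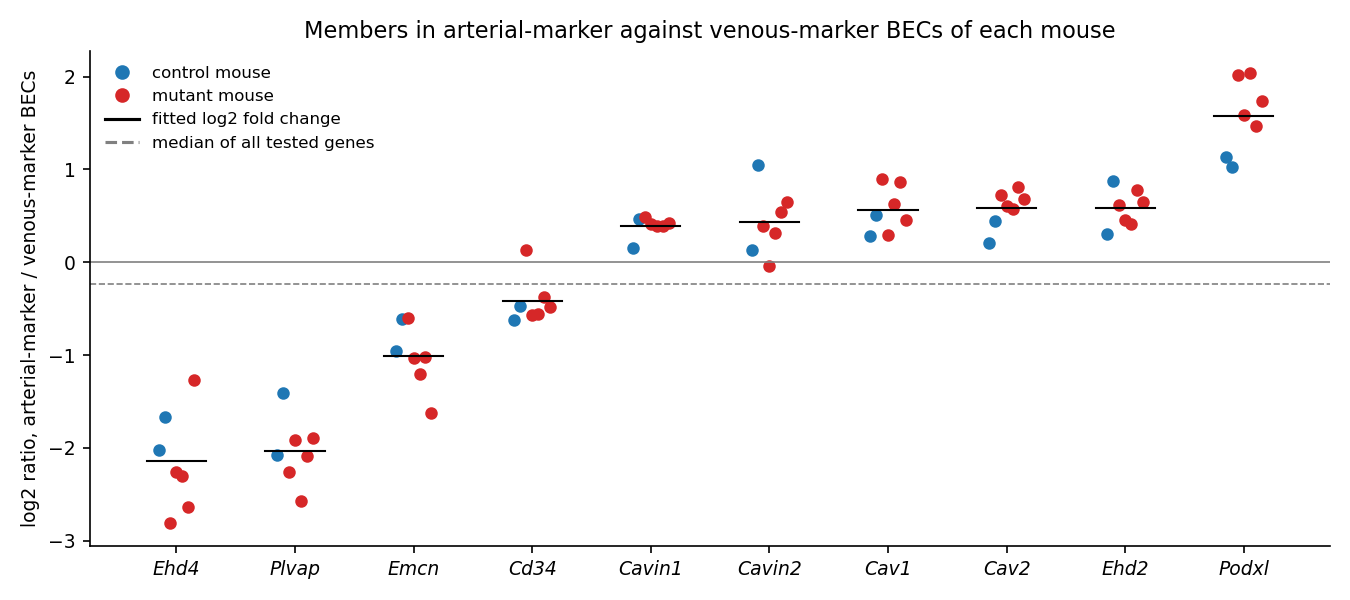
The log2 ratio of TMM-scaled CPM in arterial-marker over venous-marker BECs for each of 7 mice (points), with the fitted log2 fold change (bar) and the median of all tested genes (dashed line). *Ehd4* and *Plvap* lie below −1.2 in every mouse and *Podxl* above 1.0 in every mouse.

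The same division appeared from cell to cell. Spearman's rho between log CPM of 2 genes was taken over the BECs of each mouse and is described by its median over 7 mice. *Plvap* and *Ehd4* had a rho of 0.57 (0.27 to 0.64) and *Plvap* and *Emcn* one of 0.37 (0.15 to 0.46). *Plvap* and *Cav1* had a rho of −0.44 (−0.50 to −0.36) and *Cav1* and *Ehd4* one of −0.41 (−0.52 to −0.21). Among coat genes *Cav1* and *Cav2* reached 0.42 (0.29 to 0.54) and *Cav1* and *Ehd2* 0.36 (0.33 to 0.47). In LECs *Plvap* and *Ehd4* had a rho of 0.03 (−0.12 to 0.17), beside 0.27 (0.09 to 0.33) for *Cav1* and *Cav2* and −0.30 (−0.42 to −0.03) for *Cavin2* and *Cd34*. Cells of a mouse are not independent replicates, so these are descriptions.

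The list of other caveola and sialomucin genes held 23 names. Between BECs and LECs 21 were tested and 10 called, 4 higher in BECs (*Cav3*, *Ehd3*, *Glycam1* and *Madcam1*) and 6 lower (*Cavin3*, *Cd164*, *Cd24a*, *Ehd1*, *Pacsin2* and *Pacsin3*), with a median log2 of −0.02, equal to that of all genes. *Pacsin3*, a membrane-bending partner of caveolae, was 6.16-fold lower in BECs, at 3.79 to 15.4 CPM against 35.3 to 137 CPM in LECs. *Madcam1*, an addressin of venules, reached 0 to 48.7 CPM in BECs and 0 to 3.51 CPM in LECs. *Glycam1*, an L-selectin ligand of high endothelial venules, reached 0 to 12.6 CPM in BECs and at most 0.737 CPM in LECs. *Cav3*, the muscle caveolin, stayed at or under 5.42 CPM in BECs and at or under 0.0306 CPM in LECs, so for these 3 genes levels are given in place of a fold. *Ehd1*, a relative of *Ehd4* that recycles endosomes, was 2.57-fold lower in BECs (291 ± 52.6 against 764 ± 194 CPM, adjusted p = 0.000503), the reverse of *Ehd4*.

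Between arterial-marker and venous-marker BECs 19 of the list were tested and 6 called. *Ehd1* was 3.89-fold higher in arterial-marker cells (608 ± 235 against 154 ± 43.7 CPM, adjusted p = 0.00126), so it again ran opposite to *Ehd4*. *Cd24a* was 5.79-fold higher (98.1 ± 43.0 against 18.3 ± 13.3 CPM, adjusted p = 0.00537). *Slc9a3r1* and *Slc9a3r2*, which encode PDZ proteins that bind podocalyxin, were higher with *Podxl* (log2 1.74 and 1.29). *Madcam1* (0 to 1.08 against 0 to 61.5 CPM) and *Glycam1* (0 to 0.163 against 0 to 16.9 CPM) were called lower in arterial-marker cells. The median log2 over the 19 was −0.28, beside −0.23 over all genes.

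The second question was what oncogenic *Pik3ca* changed in BECs. *Ehd4* rose in mutant BECs and was the 1 member of 10 to pass the test, beside 2.12% of all 19315 genes tested (410 genes), or 1.51% called higher. *Ehd4* stood at 525 and 409 CPM in controls 1 and 2 and at 1182, 1049, 1118, 1035 and 1047 CPM in mutants 1 to 5. Every mutant mouse lay above both controls, and the mutant mice lay within a narrow band. It was 2.33-fold higher (log2 1.22, SE 0.14, adjusted p = 0.00722). After each cell was thinned to 50000 reads, 73.7% ± 5.56 of mutant BECs (SD, n = 5 mice) had 5 *Ehd4* reads or more, that is 100 CPM, against 48.4% and 52.8% in the controls.

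Venous-marker cells, in which *Ehd4* was high, made up 69.9% ± 5.41 of BECs in mutant mice and 50.9% and 42.0% in controls 1 and 2 (two-sided exact permutation p = 0.0952, the lowest that 21 splits allow). Arterial-marker cells made up 15.9% ± 2.37 against 26.4% and 29.3%. Within venous-marker BECs *Ehd4* was called (log2 0.98, adjusted p = 0.0119), and within arterial-marker BECs it was not (log2 0.62, adjusted p = 0.781). The arterial-marker fit called 1 of 15128 genes, and a difference between these fits was not tested. The part of the venous-marker share in the *Ehd4* difference was not tested either. Without cells that held fibroblast markers, which were 50.3% and 25.5% of control and 4.40% ± 2.54 of mutant BECs, *Ehd4* was at log2 1.32 (adjusted p = 0.00418). With the plate series as a block it was at log2 1.18 and not called (adjusted p = 0.0730), and with the replicate number as a block it was not called (adjusted p = 0.132).

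Among the other members, *Plvap* stood at 2095 and 2006 CPM in the controls and at 2685 to 4042 CPM in the mutants (log2 0.66, SE 0.17, adjusted p = 0.0862). *Emcn* stood at 709 and 814 against 939 to 1299 CPM (log2 0.65, SE 0.15, adjusted p = 0.0709), and *Ehd2* at 954 and 1043 against 1049 to 1858 CPM (log2 0.54, SE 0.20, adjusted p = 0.191). In these and in *Ehd4* each mutant mouse exceeded both controls, which 13.6% of all genes did. *Podxl* stood at 430.5 and 413 CPM in controls and 194 to 331 CPM in mutants (log2 −0.62, SE 0.20, adjusted p = 0.145), and *Cavin1* at 1662 and 1287 against 734 to 1241 CPM (log2 −0.78, SE 0.22, adjusted p = 0.113). Each mutant mouse was below both controls in these 2 genes, as in 11.5% of all genes. *Emcn* and *Podxl* are genes of the BEC gate, so their differences in BECs rest partly on values that admitted the cells. Differences for *Cd34* (log2 0.25, SE 0.14), *Cav1* (0.22, SE 0.16), *Cavin2* (0.07, SE 0.16) and *Cav2* (−0.06, SE 0.24) lay within overlapping mice.

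Within arterial-marker BECs *Plvap* was at log2 −0.04 and *Podxl* at 0.00, and within venous-marker BECs they were at 0.42 and −0.68, none of them called. DESeq2 called 5 members (*Ehd4*, *Emcn* and *Plvap* higher, *Cavin1* and *Podxl* lower), and leaving out mutant 5 gave 3 calls (*Ehd4*, *Emcn* and *Cavin1*). Of the 23 other caveola and sialomucin genes, 20 were tested in BECs and 0 called.

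**Figure D3:**
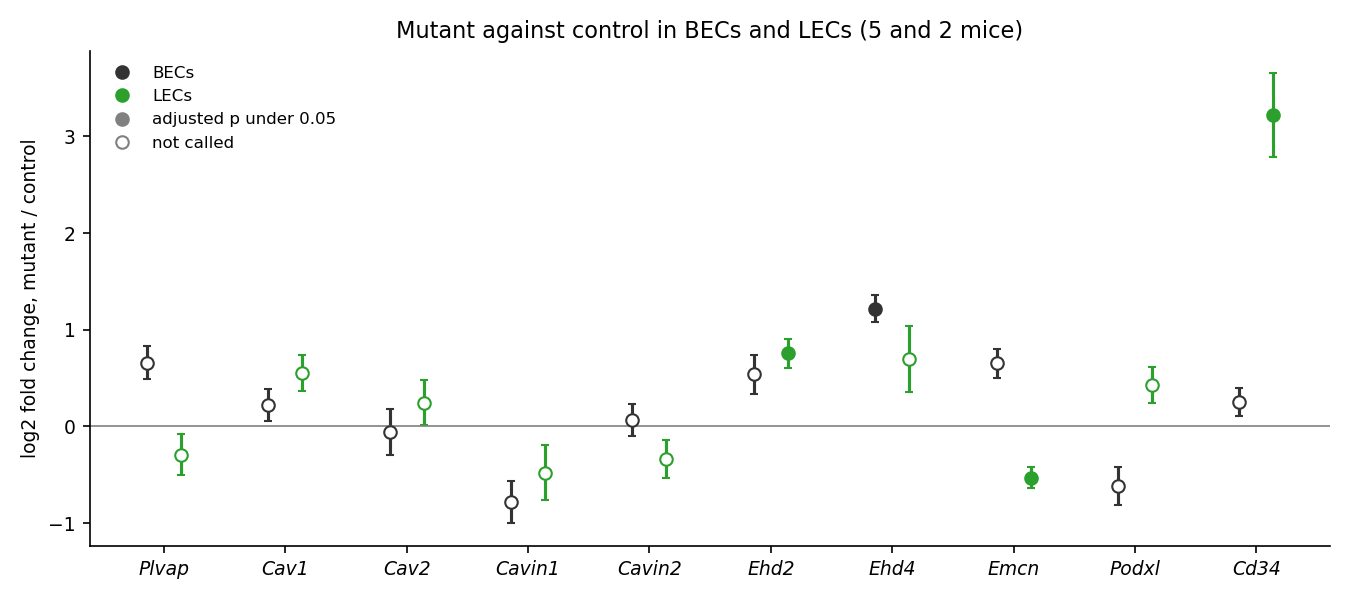
Fitted log2 fold change of mutant over control in BECs (black) and LECs (green), from 5 mutant and 2 control mice, with the SE as a bar and filled points for an adjusted p under 0.05. *Ehd4* is called in BECs, and *Cd34*, *Ehd2* and *Emcn* in LECs.

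In mutant LECs *Cd34* rose about 9-fold, *Ehd2* rose 1.69-fold and *Emcn* fell. These 3 of 10 members passed the test, beside 2.76% of 19758 genes (546 genes), with 1.96% called higher and 0.805% lower. In a LEC *Prox1*, *Flt4* and *Mmrn1* had to exceed a sum that holds *Emcn* and *Podxl*. The differences of *Emcn* and *Podxl* in LECs thus rest partly on values that the gate used. Without overlap between mutant and control mice, *Cd34*, *Ehd2* and *Cav1* were higher and *Emcn* was lower, as were 13.8% and 11.7% of all genes. *Cd34* stood at 70.9 and 27.8 CPM in controls 1 and 2 and at 348, 379, 415, 533 and 626 CPM in mutants 1 to 5. The lowest mutant mouse was thus several-fold above the higher control, while LECs stayed below the BECs of the same mouse in 7 of 7 mice. The fitted fold change was 9.32 (log2 3.22, SE 0.43, adjusted p = 0.0134). It was called without either control and without any mutant mouse, at log2 2.70 to 4.07, and without cells with fibroblast markers (log2 3.45, adjusted p = 0.00341). With the plate series as a block it was at log2 3.68 (adjusted p = 0.0309), where the difference rests on mutant 5 against the 2 controls.

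*Ehd2* stood at 940.5 and 771 CPM in control and 1163 to 1610 CPM in mutant LECs (log2 0.76, SE 0.15, adjusted p = 0.0409). *Emcn* stood at 486 and 478 CPM in control and 300 to 364 CPM in mutant LECs and fell by 0.53 on the log2 scale (SE 0.11, adjusted p = 0.0496). Both sets of mice were apart, but both calls were near the threshold. On leaving out each of the 7 mice in turn *Emcn* was called in 0 of 7 fits (adjusted p 0.0543 to 0.127) and *Ehd2* in 1 of 7 (without mutant 5, adjusted p = 0.0218). *Emcn* also lost its call with a gate without *Emcn* and *Podxl* (log2 −0.47, adjusted p = 0.0703), in LECs with *Flt1* under 30 CPM (−0.52, adjusted p = 0.0520) and with each cell thinned to 50000 reads (−0.49, adjusted p = 0.0837), and *Ehd2* without cells with fibroblast markers (log2 0.64, adjusted p = 0.0689). With DESeq2 size factors 1 member was called, *Cd34*, in place of 2 higher and 1 lower, and without cycling cells, which were 243 of the mutant and 6 of the control LECs, *Cd34* alone was called (log2 2.93, adjusted p = 0.0333). With the plate series as a block *Ehd2* was at log2 0.46 (adjusted p = 0.314) and *Emcn* at −0.67 (adjusted p = 0.148).

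The other coat genes were not called in LECs. *Cav1* stood at 1224 and 1291 CPM in controls and 1303 to 2100 CPM in mutants (log2 0.55, SE 0.19, adjusted p = 0.156), apart but narrowly for mutant 5. *Ehd4* stood at 179 and 76.5 against 164 to 275 CPM (log2 0.70, SE 0.35, adjusted p = 0.298), and its controls lay further apart than most mutants. *Cav2* was at log2 0.24 (SE 0.23), *Cavin1* at −0.48 (SE 0.28) and *Cavin2* at −0.34 (SE 0.20), each with overlapping mice. *Plvap* stood at 765 and 655 CPM in controls and 469 to 816 CPM in mutants (log2 −0.29, SE 0.21, adjusted p = 0.471), and *Podxl* at 192 and 163 against 177 to 275 CPM (log2 0.43, SE 0.19, adjusted p = 0.251). Over all members the median log2 was 0.34, beside −0.01 over all genes. Of the 23 other genes 18 were tested in LECs and 0 called.

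The share of LECs with *Cd34* differed along with its level. With 5 of 50000 thinned reads as the limit, 41.6% ± 10.3 of mutant LECs were positive (32.1% to 58.9% over 5 mice), against 7.65% in control 1 (95% Wilson interval 4.61 to 12.4, counting error only) and 2.86% in control 2 (1.23 to 6.51). The groups did not overlap (two-sided exact permutation p = 0.0952, the lowest possible). Among BECs 93.9% ± 1.80 of mutant and 87.3% and 87.4% of control cells were positive.

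**Figure D4:**
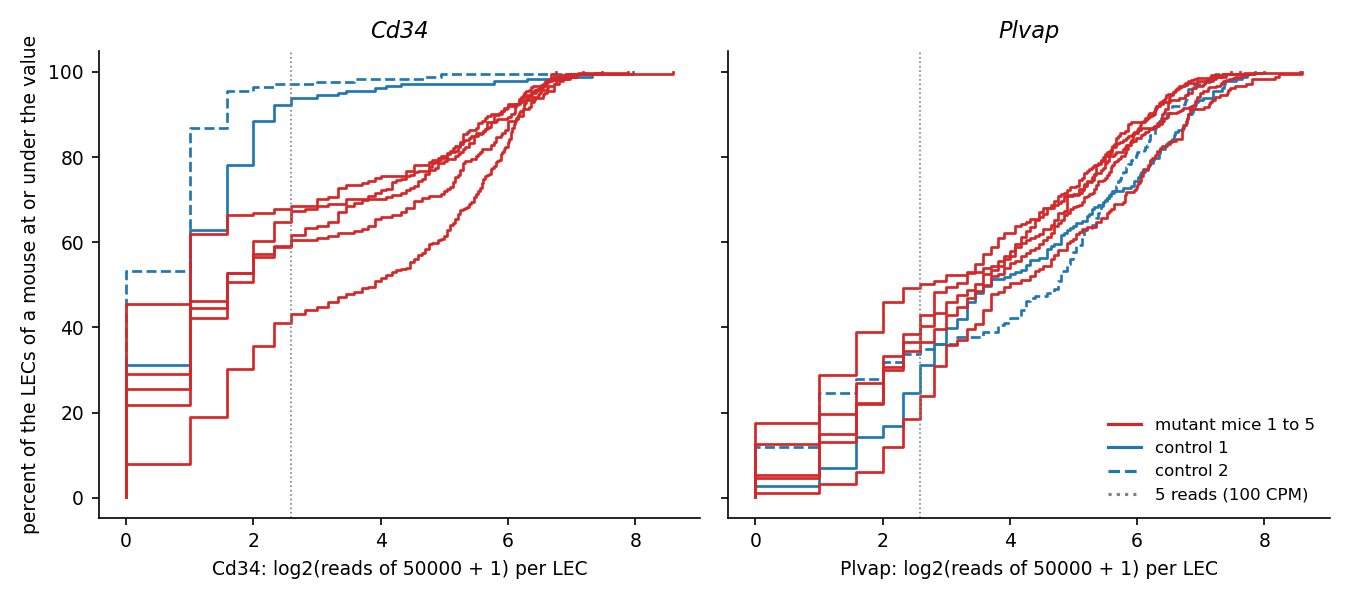
Cumulative percent of the LECs of each mouse (lines) at or under a read count per cell, thinned to 50000 reads, for *Cd34* and *Plvap* on a log2(reads + 1) axis, with the limit of 5 reads dotted. The *Cd34* curves of mutant mice leave those of the controls before the limit, whereas the *Plvap* curves of the 7 mice cross.

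LECs were then split at this *Cd34* limit, a choice made after the values were seen, so no test is given. Mutant mice had 60 to 216 *Cd34*-high LECs each. In 5 of 5 mutant mice these cells had more *Ptx3*, a marker of terminal capillary LECs, at 393 to 592 CPM against 93.4 to 163 CPM in the other LECs. They also had more of the cycling gene *Mki67* (111.5 to 275 against 25.6 to 56.9 CPM) and less of the collecting vessel gene *Foxp2* (10.4 to 17.5 against 30.3 to 135 CPM), the valve gene *Cldn11* (21.4 to 116 against 227 to 371 CPM) and *Mmrn1* (945 to 1644 against 2391 to 3604 CPM). *Prox1*, like *Mmrn1* a gene of the LEC gate, was lower in 5 of 5 (261 to 378 against 433 to 603 CPM), and *Flt4* was higher in 4 of 5. *Thbd*, *Mrc1* and *Lyve1* were higher in 5 of 5, and *Ptn* was lower in 4 of 5. Of the 7 BEC markers outside the gate, *Ly6c1* was higher in the *Cd34*-high cells in 5 of 5 mutant mice (25.1 to 71.3 against 6.63 to 27.3 CPM) and *Nos3* in 4 of 5, *Cd300lg* and *Ptprb* were lower in 5 of 5, and *Sox17*, *Aplnr* and *Esm1* were lower in 3, 3 and 4 of 5. The fibroblast gene *Dcn* was higher in 5 of 5 (20.6 to 48.7 against 3.11 to 15.4 CPM), *Col1a1* in 3 and *Pdgfra* in 1 of 5. The part of these genes in the split was not tested.

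Other members split with *Cd34* in the same cells. *Emcn* was at 172 to 245 CPM in *Cd34*-high and 403 to 454.5 CPM in other LECs, *Cavin2* at 569 to 810 against 982 to 1509 CPM, and *Plvap* at 312 to 734 against 613 to 900 CPM, lower in 5 of 5 mutant mice each. *Cav1*, *Cav2* and *Podxl* were lower in 5 of 5 by a smaller step (median log2 ratios −0.28, −0.30 and −0.34). *Ehd4* was higher in 5 of 5, at 229 to 306 against 119 to 216 CPM. *Ehd2* (higher in 4 of 5) and *Cavin1* (2 of 5) showed no common direction. Controls 1 and 2 had 14 and 5 such cells, with *Ptx3* at 2.00 and 1.83 CPM. In these cells *Aplnr* was at 672 and 245 CPM (read in 78.6% and 40% of them), *Flt1* at 44.0 and 4.89 CPM, *Dcn* at 414 and 3.06 CPM and *Col1a1* at 269 and 8.56 CPM, so BEC and fibroblast genes were read in them, most of all in control 1.

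**Figure D5:**
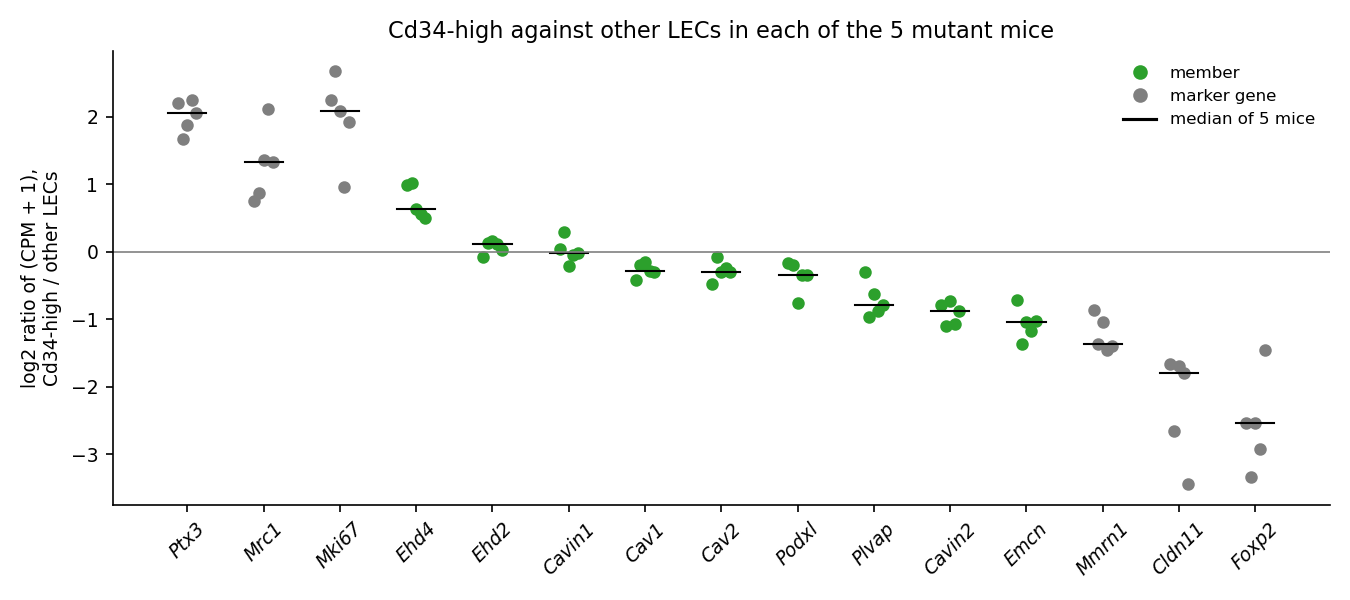
The log2 ratio of (CPM + 1) in *Cd34*-high over other LECs in each of 5 mutant mice (points) with their median (bar), for members (green) and marker genes (grey). *Ptx3* and *Mki67* are higher and *Foxp2*, *Cldn11*, *Emcn*, *Cavin2* and *Plvap* lower in *Cd34*-high cells of all 5 mice.

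Whether the mutant difference itself differed between BECs and LECs was tested as an interaction over the 14 sums with the mouse as a block. Of 21933 genes 42 were called, or 0.191%, with 0.16% in the direction of a greater difference in BECs, and 2 of the 10 members were called in that direction, *Emcn* and *Plvap*. The log2 effect on *Emcn* was greater in BECs than in LECs by 1.20 (SE 0.13, adjusted p = 0.0182), with 0.65 in BECs and −0.53 in LECs. That on *Plvap* was greater by 0.99 (SE 0.11, adjusted p = 0.0318), with 0.66 and −0.29. *Podxl* had the opposite difference (−1.03, SE 0.16, adjusted p = 0.0666) and *Cd34* the largest (−3.06, SE 0.47, adjusted p = 0.0695), neither called. *Ehd4*, called in BECs and not in LECs, was not shown to differ between them (0.46, SE 0.31, adjusted p = 0.656). *Emcn* and *Podxl* helped to set the classes, so their p-values here rest partly on values that the gate used. The calls of *Emcn* and *Plvap* were fragile. With a gate without *Emcn* and *Podxl* 1 member was called, which was *Emcn*, while *Plvap* lost its call. Leaving out any 1 of controls 1 and 2 or mutants 1 to 4 gave 0 called members, leaving out mutant 5 gave 1 (*Emcn*, adjusted p = 0.0266), and the plate series block gave 0, while the log2 difference stayed between 1.00 and 1.33 for *Emcn* and between 0.92 and 1.08 for *Plvap* in all 16 alternatives.

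The last comparison concerned LECs with *Plvap*. At 100 CPM or more there were 1042 such LECs, 3 LECs had no *Plvap* read, and the limit cut a continuum, with 227 LECs at 50 to under 100 CPM and 117 at 100 to under 150 CPM. By construction *Plvap* stood at 735.5 to 1168 CPM above and 23.3 to 68.3 CPM below the limit. None of the other 9 members was called by edgeR. Of 19555 genes 1 was called, or 0.00511%, which was *Plvap* itself, whereas 1319 genes had an unadjusted p under 0.05 and DESeq2 called 298 genes and 0 members. *Emcn* was nearest, at 404 ± 91.0 CPM above and 332 ± 76.2 CPM below the limit (log2 0.29, SE 0.11, adjusted p = 0.676), with a higher level in 5 of 7 mice. *Ehd4* was at log2 0.27 (SE 0.15) and *Cd34* at −0.31 (SE 0.35), both with mixed directions over mice, and the 6 others lay between −0.15 and −0.01. The BEC markers were not called either (0 of 7, summed at 525 to 1195 CPM above and 394 to 787 CPM below the limit).

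After thinning, 64.6% ± 11.05 of LECs were above the limit in mutant mice (50.8% to 81.5%) and 66.3% and 75.4% in controls 2 and 1. The difference of −6.26 percentage points was within the spread of the mutant mice (two-sided exact permutation p = 0.571, 5 against 2 mice).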

How the data were processed

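Single cells of 9 plates were profiled with Smart-Seq2. The authors aligned the reads of each cell with TopHat2 2.1.1 to GRCm38 plus the chicken PIK3CA sequence, removed duplicates with SAMtools 0.1.18 and counted reads per gene with featureCounts, and the deposited count tables hold raw whole-number counts of all wells. The deposited gene identifiers and exon lengths name the rows and give levels per kilobase. The annotation version is not given in the sources used here.

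A well was kept with 200 genes or more, 50000 reads or more and no more than 10% of reads from mitochondrial genes. Spike-ins (92 rows, 0.447% of reads) stayed out of library sizes and tests. CPM were taken per cell for the gates, and counts were summed per mouse and cell class, so plates of 1 mouse were added. Sums held 38402388 to 99630824 reads for BECs and 55616045 to 194353210 for LECs. Sets under 5 cells were not used. Genes passing filterByExpr were tested with edgeR 4.0.16 (R 4.3.3, quasi-likelihood F test, TMM scaling, Benjamini-Hochberg adjustment over all tested genes), with a call at an adjusted p under 0.05. The SE is the absolute log2 fold change divided by the square root of F. Comparisons of cell classes had the mouse as a block, and mutant against control had no block. Shares of cells were compared by exact permutation over the 21 splits of 7 mice. The fits were tested on simulated counts. Of 100 genes given a log2 change of 1, 19 were recovered in mutant against control BECs and 17 in LECs. Between BECs and LECs 68 were recovered. At a log2 change of 2 the numbers were 77, 86 and 100. A gene that was not called is thus not shown to be unchanged. DESeq2 1.42.0 and the other settings are given in the closing section. Python 3.11.15, pandas 2.3.3 and scipy 1.17.1 were used. Wells were sorted for single cells and doublets were not called. The BEC and LEC sums of the gates both reached their limit in 1201 cells.

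The members and gene lists were chosen with earlier results of these data known. All members were named in each comparison, and of the 23 other genes up to 4 called genes with the largest change, to which *Ehd1* between BECs and LECs and the *Slc9a3r* genes were added after their values were seen. Positions are those of GENCODE vM21 and sequences those of RefSeq on GRCm38.p6. The mice are separate animals.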

Additional observations from a re-analysis of the deposited data

Results flagged for a closer look

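Among the 40 sets of 5 mutant mice tested for a mouse far from the rest (each gene's level and share of cells in BECs and LECs), 5 had a gap to the nearest mouse above 0.71 of the whole range, where chance gives about 1 in 20. All 5 were mutant 5, the mutant mouse whose plates were numbered with those of the controls. Its *Cavin1* level was 1241 CPM in BECs (the other mutants 734 to 814.5 CPM) and 1157 CPM in LECs (550 to 674 CPM). Both of its plates were high, at 1438 and 1047 CPM in BECs and 1272 and 1043 CPM in LECs. Its *Emcn* level in BECs was 939 CPM (1227 to 1299 CPM in the other mutants). Of its BECs, 82.8% had *Cavin2* and 88.8% had *Ehd2* at the limit of 5 thinned reads, against 88.6% to 89.6% and 94.0% to 95.8% in the others. Controls 1 and 2 stood at 1662 and 1287 CPM for *Cavin1* in BECs, 1213 and 828.7 CPM for *Cavin1* in LECs, 709 and 814 CPM for *Emcn* in BECs, 89.9% and 79.0% for *Cavin2* and 85.5% and 79.6% for *Ehd2*, so in all 5 values mutant 5 lay nearer to the mean of the controls than the other mutants did. Plate series and mouse cannot be told apart.

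The mutant difference of *Emcn* and of *Plvap* differed between BECs and LECs by the interaction test, by 1.20 and 0.99 on the log2 scale. *Emcn* is one of the genes of the BEC gate, so its test rests partly on values that the gate used.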

How the results depend on the processing

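Member calls depended on which mice and plates entered. In BECs 1 member was called in mutant against control, 5 with DESeq2, and 0 with the replicate number as a block, with the plate series as a block, with mutant 5 against the controls only, and in arterial-marker BECs only. Leaving out 1 mouse gave 1 to 3 (3 without mutant 5). In LECs the 3 became 1 with DESeq2 size factors, no expression filter, the plate series block, without cycling cells or without LECs with *Plvap*, 2 with thinned cells, the gate without members or the strict gate (2 higher, 0 lower) or without cells with fibroblast markers (1 higher, 1 lower), and 0 with the replicate block or mutant 5 only, and leaving out 1 mouse gave 1 to 3. For the difference between BECs and LECs, the 2 became 4 with DESeq2, 1 with the gate without members, 0 with the plate series block or mutant 5 only, and 0 to 1 on leaving out a mouse. Between arterial-marker and venous-marker BECs the 9 became 5 without the mouse block. Counts between BECs and LECs (5 to 6) and in LECs with *Plvap* (0) did not move by over 1.5 times. The causes were not tested. For mutant against control, the plate series block and mutant 5 only are not separate checks. In both, the difference comes from mutant 5 against the 2 controls.

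Counts over all genes moved more. For BECs the 410 became 2238 with DESeq2, 37 with the plate series block, 0 with the replicate block or mutant 5 only (2880 genes at an unadjusted p under 0.05 with the replicate block), 701 in venous-marker and 1 in arterial-marker BECs, and 159 to 586 on leaving out a mouse. For LECs the 546 became 2472, 160, 4 and 3 in that order for the first 4 settings, 93 without cycling cells, 130 without LECs with *Plvap*, and 153 to 546. For the interaction the 42 became 1240 with DESeq2, 4 with the plate series block, 0 with mutant 5 only, 22 without cycling cells, and 0 to 21 on leaving out a mouse. Arterial-marker against venous-marker BECs had 676, 2197 with DESeq2 and 342 to 595 on leaving out a mouse.

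Some differences that changed sign were not small in the main fit, such as *Plvap* (log2 0.66) and *Podxl* (−0.62) in BECs and *Cavin1* (−0.48) in LECs. No difference that changed sign was called, in the main fit or in the setting that turned it. In BECs, mutant against control, these were *Plvap* (−0.042) and *Podxl* (0.0028) in arterial-marker cells, *Cav2* (0.28 in arterial-marker cells), *Cavin2* (−0.033 with the gate without members, −0.065 without cells with fibroblast markers), and under the plate series block and mutant 5 only *Cav1* (−0.089 and −0.093), *Cavin2* (−0.25 in both) and *Cd34* (−0.034 and −0.038). In LECs the last 2 settings turned *Cav2* (−0.33 and −0.34) and *Cavin1* (0.19 in both), and in the interaction *Ehd4* (−0.021 and −0.045). In LECs with *Plvap*, *Ehd2* (0.0161 with no filter, 0.0362 thinned, 0.0622 at 200 CPM), *Cav2* (0.0082 with no filter, 0.0406 at 200 CPM), *Cavin2* (0.0236 at 200 CPM), *Podxl* (0.0068 at 50 CPM) and *Cd34* (0.0551 with the gate without members) turned. Leaving out 1 mouse gave ranges across 0 for *Cav2* (−0.19 to 0.088) and *Cavin2* (−0.052 to 0.21) in mutant against control BECs, *Cavin2* in LECs (−0.62 to 0.030), *Ehd2* in the interaction (−0.40 to 0.0085), *Cavin2* between BECs and LECs (−0.048 to 0.10), and *Cav2* (−0.032 to 0.016) and *Ehd2* (−0.048 to 0.035) in LECs with *Plvap*.

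Replicate numbers shared by mutants and controls joined only 2 pairs of different animals, with correlations of deviations of 0.030 and 0.120 in BECs and −0.051 and 0.022 in LECs. The deviations of the 2 controls from their mean mirror each other, so these correlations cannot show whether the numbers mark a pairing. With the replicate number as a block *Ehd4* in BECs (adjusted p = 0.132) and *Cd34* in LECs (adjusted p = 0.0797) lost their calls. Strict gates left 0 and 36 control BECs and were not run for comparisons with BECs. With 2 controls that differ in treatment, the spread between control mice is poorly known. The ratio gate, the vessel-type and fibroblast settings, and the gate without members for vessel types were added after seeing the data.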

Other observations

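Mutants 3 and 5 were sequenced on 2 plates each, which gives repeat values within a mouse. In BECs *Ehd4* stood at 1046 and 1157 CPM on the plates of mutant 3 and at 1017 and 1110 CPM on those of mutant 5, so plates of a mouse differed by less than mutants and controls did. In LECs *Cd34* stood at 398 and 408 CPM in mutant 3 and at 593.5 and 651 CPM in mutant 5.

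The share of cells with *Podxl* at the limit of 5 thinned reads was lower in mutant than in control BECs (42.6% to 58.6% against 66.2% to 66.7%) and higher in mutant than in control LECs (50.1% to 64.3% against 42.6% to 44.0%), a description with no test, since *Podxl* is one of the genes of the BEC gate. *Ehd4* was above the limit in 38.0% to 58.6% of mutant LECs and in 28.4% and 22.9% of the LECs of controls 1 and 2, although its level in LECs was not called. *Ehd1* was at log2 0.78 in mutant against control LECs and narrowly missed the threshold (adjusted p = 0.0501).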
